A study of Ovis aries with 12 samples.

Results

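The hormone receptor genes examined here in the right ventricle of sheep were THRA and THRB, which encode the nuclear receptors for thyroid hormone, and NR3C1, which encodes the glucocorticoid receptor. With them goes HSD11B1, which encodes the enzyme that makes active glucocorticoid inside cells. They were picked by name, as the rows THRA, THRB, NR3C1 and HSD11B1 of a deposited table of raw counts, and make up 4 of its 27054 rows. Each name had exactly 1 row, and all 4 genes passed the filter on low counts. The table holds 12 mRNA libraries of snap frozen right ventricular free wall, 4 each from fetal lambs, control lambs and shunt lambs. Control and shunt lambs were 4 to 6 weeks old. Shunt lambs had been operated on before birth and carried a graft from the aorta to the pulmonary artery, which shunts blood from left to right and loads the right ventricle with pressure. The labels state neither the gestational age of the fetal lambs nor whether control or fetal lambs had any operation. The labels do not say that each library is a separate animal, so p-values measure the spread between libraries, which may be technical.

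Thyroid hormone and cortisol both surge around birth in sheep and are known to drive the maturation of the heart. The receptors THRA and THRB sit on DNA as partners of retinoid X receptors and switch genes on or off according to whether hormone is bound. THRA is the main form of heart muscle in mammals, and besides the hormone-binding receptor it gives a splice variant that does not bind the hormone. NR3C1 waits in the cytoplasm with heat shock protein partners and moves into the nucleus when cortisol binds. HSD11B1 turns inactive cortisone back into cortisol, so that it helps to set how much hormone reaches NR3C1 within a cell. Counts per gene do not separate splice variants, and no sequences are shown.

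Total counts per library ran from 19111348 to 44946875. The 13 mitochondrially encoded protein genes took 26.7% to 41.2% of counts in fetal, 43.5% to 49.99% in control and 45.6% to 72.6% in shunt libraries. Shunt 1 and shunt 2 stood apart, at 72.6% and 71.4%, so that 7152139 and 7140136 counts fell outside those genes, where the remaining libraries had 10702663 to 24976602. Results on the 4 genes that rest on shunt libraries are therefore also given without these 2, apart from HSD11B1 in shunt against fetal. Levels are CPM, counts scaled to a common library size, on the TMM scale, the trimmed mean of M values, which assumes that most genes do not differ between libraries. Changes were tested with edgeR's quasi-likelihood test over all 13065 genes that passed the filter, and a change was called where the p adjusted by Benjamini-Hochberg was under 0.05. Of 19 heart muscle genes on the marker list 4 had a row by name, MB, MYL2, MYOZ2 and TPM1. They were present in every group, with summed CPM of 20388 to 30425 in fetal, 26166 to 32999 in control and 19915 to 36167 in shunt libraries. In whole tissue, fewer cells of a type and less RNA per cell cannot be told apart.

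None of the 4 genes was called between control and fetal libraries, 1 of 4 between shunt and control (HSD11B1, lower in shunt), and 1 of 4 between shunt and fetal (NR3C1, lower in shunt). Over all genes tested, edgeR called 5.17% between control and fetal libraries (2.66% higher and 2.50% lower in control). It called 4.00% between shunt and control (2.30% higher and 1.69% lower in shunt) and 15.7% between shunt and fetal (9.16% higher and 6.51% lower in shunt). At an unadjusted p under 0.05 the counts were 2, 3 and 2 of the 4 genes, against 18.4%, 28.0% and 32.8% of all genes. DESeq2's Wald test called 2 of the 4 in each comparison, against 8.54%, 15.1% and 19.7% of all genes it gave an adjusted p.

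The libraries of the groups compared did not overlap for 1 of the 4 genes between control and fetal (HSD11B1, higher in control), against 19.3% of all genes, 9.18% higher and 10.2% lower. Between shunt and control 3 of the 4 did not overlap, all lower in shunt (THRA, NR3C1 and HSD11B1), against 12.1% of all genes, 6.06% higher and 6.07% lower. Between shunt and fetal 2 of the 4 did not overlap, both lower in shunt (THRA and NR3C1), against 19.0% of all genes, 9.12% higher and 9.89% lower. Control libraries enter both of the first comparisons, shunt libraries both of the last, and fetal libraries the first and the last, so the changes are not independent of each other.

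**Figure D1:**
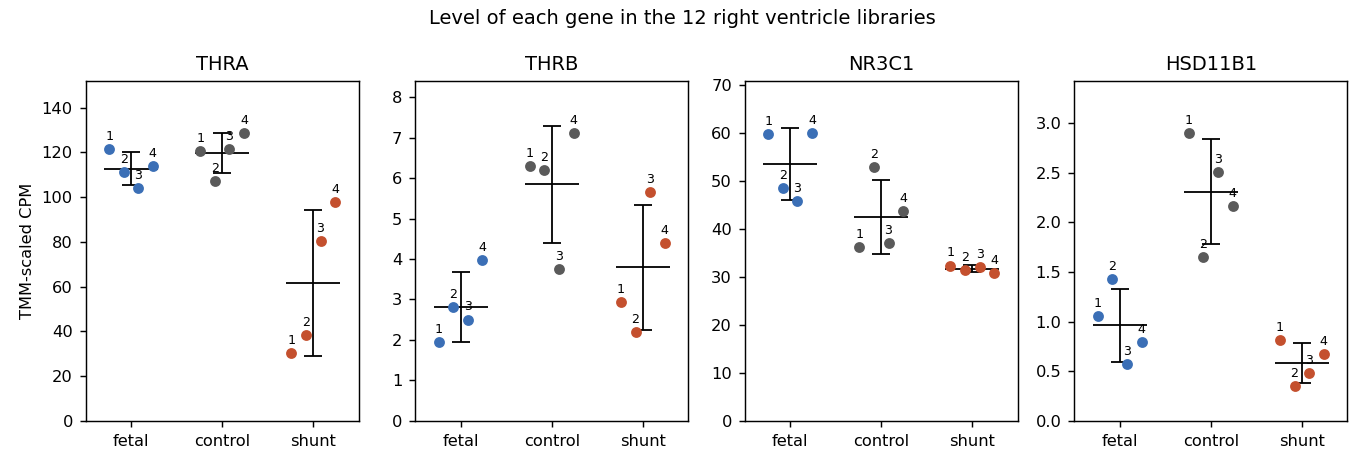
TMM-scaled CPM (linear axes from 0) of THRA, THRB, NR3C1 and HSD11B1 in each library, with the group mean as a line and 1 SD as the bar (n = 4), and the replicate number beside each point. THRA is low in shunt 1 and shunt 2 (30.5 and 38.3 CPM), NR3C1 is nearly level in the 4 shunt libraries (30.9 to 32.4 CPM), and HSD11B1 is highest in the 4 control libraries.

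THRA (ENSOARG00000012886), the thyroid hormone receptor alpha gene, averaged 113 CPM in the fetal and 119.6 CPM in the control ventricle and was lower in the loaded one, at 61.7 CPM. EdgeR called no difference, and DESeq2 called both of those with shunt libraries. Fetal libraries 1 to 4 were at 122, 111, 104 and 114 CPM and control libraries at 121, 107, 121 and 129 CPM. Shunt libraries were at 30.5, 38.3, 80.3 and 97.7 CPM, so that each lay below every fetal and every control library. The raw counts behind these values were 435 to 6032 per library, so counting error is small beside the spread. The means were 113 ± 7.23 CPM in fetal, 119.6 ± 8.89 CPM in control and 61.7 ± 32.5 CPM in shunt libraries (SD, n = 4 each).

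Control exceeded fetal THRA by 0.08 on the log2 scale (95% interval -0.53 to 0.70, edgeR adjusted p = 0.919). Shunt against control gave -0.95 (SE 0.293, edgeR adjusted p = 0.0678) and shunt against fetal -0.87 (SE 0.292, adjusted p = 0.0571). DESeq2 gave -0.95 and -0.86 (adjusted p = 0.0194 and 0.0275) and called both. The size of the THRA difference rests on shunt 1 and shunt 2. Without both it was -0.44 against control (SE 0.150, edgeR adjusted p = 0.176) and -0.35 against fetal (SE 0.149, adjusted p = 0.155). Without shunt 3 it was -1.10 and -1.02 and was called in both (adjusted p = 0.0363 and 0.0342), as it was without shunt 4 at -1.26 and -1.18 (adjusted p = 0.0125 and 0.00945).

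With CPM computed over the counts outside the mitochondrial genes alone, THRA was at 62.4, 60.9, 136 and 180 in shunt 1 to shunt 4. Control libraries spanned 219 to 255 and fetal libraries 202 to 268 on that scale, again with no overlap with shunt. Within the shunt group the coefficient of variation of THRA was 52.7%, against 6.42% in fetal and 7.43% in control libraries. The median over all genes tested was 36.3% in shunt, 19.6% in fetal and 20.1% in control libraries.

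THRA has a neighbour, NR1D1, the clock gene of the receptor REV-ERB alpha, and the gene models of the pair overlap at their ends in the RefSeq sheep annotation of assembly ARS-UI_Ramb_v3.0. The counting's use of strand was not given in the sources used here, and some reads could have been shared. NR1D1 was far less counted, with 13 to 269 counts per library, and THRA had 9.91 to 33.5 counts for each NR1D1 count. NR1D1 stood at 4.90 ± 0.754 CPM in fetal, 4.88 ± 0.660 CPM in control and 3.85 ± 2.17 CPM in shunt libraries. It was not called in any comparison, with -0.01 on the log2 scale for control less fetal, -0.31 for shunt less control and -0.32 for shunt less fetal (edgeR adjusted p = 0.996, 0.593 and 0.566).

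THRB (ENSOARG00000004444), the thyroid hormone receptor beta gene, had its highest mean in control libraries. Fetal libraries 1 to 4 were at 1.95, 2.83, 2.51 and 3.98 CPM, and control libraries at 6.30, 6.20, 3.75 and 7.12 CPM. Shunt libraries were at 2.94, 2.20, 5.65 and 4.38 CPM. Control 3 fell below fetal 4, while the other control libraries lay above all fetal ones, and the shunt libraries spread across both groups. These values rest on 57 to 136 counts per library in fetal, 135 to 315 in control and 25 to 186 in shunt.

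The THRB means were 2.82 ± 0.857, 5.84 ± 1.45 and 3.79 ± 1.54 CPM (SD, n = 4) in fetal, control and shunt. The log2 change for control against fetal was 1.05 with a 95% interval of 0.36 to 1.74 and no call (edgeR adjusted p = 0.0780). It was called once shunt 1 and shunt 2, which enter the estimate of spread, were left out (log2 1.05, edgeR adjusted p = 0.0210). For shunt against control THRB had a log2 change of -0.60 (95% interval -1.29 to 0.09, edgeR adjusted p = 0.235), and -0.24 without shunt 1 and shunt 2. For shunt against fetal it was 0.45 (95% interval -0.24 to 1.14, edgeR adjusted p = 0.355), and 0.81 without them. With library totals as the scaling the last value turned to -0.48, where the median of all genes stood at -1.02.

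The THRA to THRB count ratio compares the receptors within a library and so does not depend on how libraries are scaled. It includes the unknown lengths counted for each gene and is therefore read between groups only, not as a ratio of molecules. The ratio was 62.2, 39.4, 41.5 and 28.6 in fetal libraries 1 to 4, and 19.1, 17.3, 32.4 and 18.1 in control libraries. It was 10.4, 17.4, 14.2 and 22.3 in shunt libraries. Every shunt library lay below every fetal library, whereas control 3 lay above fetal 4 and the shunt and control ranges overlapped.

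The geometric means of the ratio were 41.3 in fetal, 21.0 in control and 15.5 in shunt. On the log2 scale control differed from fetal by -0.98 (SE 0.312), with a two-sided exact permutation p = 0.0571. Shunt differed from fetal by -1.42 (SE 0.328, exact permutation p = 0.0286, the smallest that 4 against 4 libraries allow). Shunt differed from control by -0.44 (SE 0.314, exact permutation p = 0.257). With Benjamini-Hochberg adjustment for 3 comparisons these permutation p-values became 0.0857, 0.0857 and 0.257, so that none passed. A comparison at the smallest possible p cannot pass this adjustment unless another reaches that p too. The adjusted test could therefore not have called shunt against fetal alone. Between fetal and control libraries the THRB mean went from 2.82 to 5.84 CPM and the THRA mean from 113 to 119.6 CPM, while shunt libraries had a THRA mean of 61.7 CPM and a THRB mean of 3.79 CPM. Without shunt 1 and shunt 2 the shunt difference was -1.22 from fetal and -0.24 from control.

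**Figure D2:**
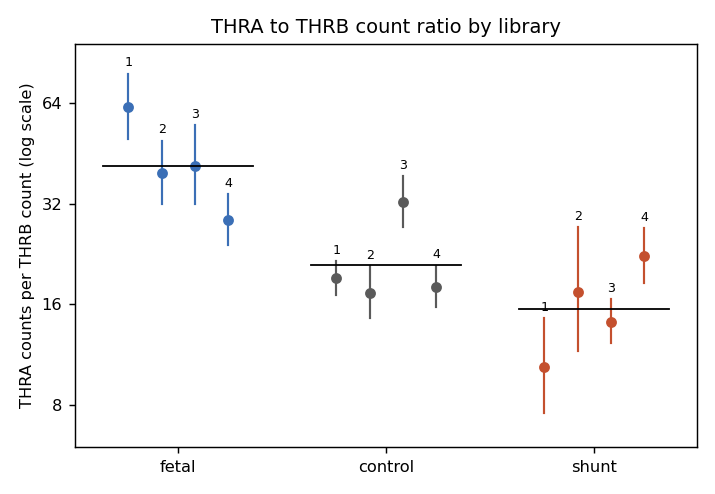
THRA counts per THRB count in each library on a log axis, with exact 95% binomial intervals that cover counting error only, the replicate number above each interval, and the geometric mean of the group as a horizontal line. Fetal libraries span 28.6 to 62.2, control libraries 17.3 to 32.4 and shunt libraries 10.4 to 22.3.

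HSD11B1 (ENSOARG00000013020), the cortisol-regenerating enzyme, was lower in the shunt than in the control ventricle, with -1.97 on the log2 scale (standard error 0.398, edgeR adjusted p = 0.0344), or 3.93-fold. DESeq2 gave -1.98 (DESeq2 adjusted p = 0.00034) and also called the difference. Control libraries 1 to 4 were at 2.90, 1.65, 2.51 and 2.17 CPM, and shunt libraries at 0.819, 0.352, 0.486 and 0.674 CPM. Fetal libraries were at 1.06, 1.43, 0.571 and 0.791 CPM. The 4 control values thus lay above all 8 others, and the shunt and fetal values overlapped. The means were 0.963 ± 0.369 CPM in fetal, 2.31 ± 0.529 CPM in control and 0.583 ± 0.206 CPM in shunt libraries (SD, n = 4 each).

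HSD11B1 was the least counted of the 4 genes, with 13 to 45 counts per fetal, 36 to 145 per control and 4 to 18 per shunt library. The 4 counts of shunt 2 have an exact Poisson interval of 1.09 to 10.2, which covers counting error only. Summed over a group there were 129 fetal, 336 control and 50 shunt counts. With CPM over counts outside the mitochondrial genes, shunt libraries spanned 0.560 to 1.68 and control libraries 3.36 to 5.81, again without overlap.

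The direction and size of the HSD11B1 difference between shunt and control held when any 1 library was left out, at -2.15 to -1.84 on the log2 scale, but the call did not. It was lost without fetal 1, fetal 2 or fetal 4 (edgeR adjusted p = 0.0522, 0.0544 and 0.0503). It was also lost without control 1, control 2 or control 4 (adjusted p = 0.0857, 0.0961 and 0.120) and without shunt 1 or shunt 2 (adjusted p = 0.0583 and 0.0748). Without shunt 1 and shunt 2 together it was -2.02 (SE 0.464, edgeR adjusted p = 0.0729), and with only the control and shunt libraries in the fit -1.98 (adjusted p = 0.117). The number of genes called moved too, from 522 to 64 without shunt 1 and shunt 2 and to 4 with only the groups compared. The adjustment over all genes therefore changed along with the gene's own test, and the unadjusted p of HSD11B1 in these fits was 0.000712 and 0.000392, against 0.000182 with all libraries.

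HSD11B1 differed between control and fetal libraries by 1.26 on the log2 scale (standard error 0.373, edgeR adjusted p = 0.0693). It was called without shunt 2 (adjusted p = 0.0496) and without shunt 1 and shunt 2 (log2 1.26, edgeR adjusted p = 0.0281). Shunt against fetal gave -0.72 with a 95% interval of -1.57 to 0.13 (edgeR adjusted p = 0.224).

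Cell type markers were set beside HSD11B1, since fibroblasts and fat cells are known to express it. The fibroblast gene DCN stood at 450 ± 58.4 CPM in fetal, 405 ± 44.2 CPM in control and 375 ± 124 CPM in shunt libraries, and shunt differed from control by -0.11 on the log2 scale (edgeR adjusted p = 0.782). The other fibroblast marker in the table, FGF7, was lower in shunt, at 20.7 ± 6.80 against 50.4 ± 9.30 CPM (log2 -1.28, edgeR adjusted p = 0.0336). FGF7 lost its call without shunt 1 or shunt 2, without control 1, control 2 or control 4, and without fetal 1 or fetal 2, with an adjusted p of up to 0.120, and was not called without shunt 1 and shunt 2 together (log2 -1.21, edgeR adjusted p = 0.0928). The summed level of the 2 fibroblast markers was 436 to 554 CPM in fetal, 401 to 476 CPM in control and 257 to 541 CPM in shunt libraries. The 7 adipocyte markers in the table summed to 76.2 to 114 CPM in fetal, 151 to 520 CPM in control and 112 to 258 CPM in shunt libraries. Most of that sum was LPL, a gene that heart muscle also expresses, with means of 83.2, 283 and 119 CPM in the same order. The sum is therefore no measure of fat cells alone.

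Single adipocyte markers differed in direction. Of the 6 tested, edgeR called 1 higher in control than in fetal libraries, where it called 2.66% of all genes higher. It called 1 lower in shunt than in control, against 1.69% of all genes, and 2 higher in shunt than in fetal, against 9.16%. LPL, the lipase that frees fatty acids from circulating fat and that heart muscle also expresses, stood at 83.2 ± 15.6 CPM in fetal, 283 ± 142 CPM in control and 119 ± 50.1 CPM in shunt libraries. It rose from fetal to control (log2 1.77, edgeR adjusted p = 0.0132), a call lost without fetal 2 (adjusted p = 0.0527) and with library totals as the scaling (adjusted p = 0.0504), and was not called between shunt and control (log2 -1.25, adjusted p = 0.0579). LIPE, the hormone-sensitive lipase, was lower in shunt than in control libraries without overlap, at 1.37 ± 0.932 against 5.11 ± 3.06 CPM (log2 -1.90, edgeR adjusted p = 0.0487). The LIPE call was kept without control 3, shunt 3 or shunt 4 and lost without each of the other libraries, with adjusted p up to 0.139, and without shunt 1 and shunt 2 together (adjusted p = 0.0936). The fatty acid binding protein gene FABP4 went the other way, at 54.0 ± 46.5 CPM in shunt and 3.34 ± 3.602 CPM in control libraries, without a call (log2 3.99, edgeR adjusted p = 0.0713). PPARG was also higher in shunt than in control, without overlap (log2 1.10). DESeq2 called it (adjusted p = 0.0280) and edgeR did not (adjusted p = 0.0769). The marker SCD was lower in shunt than in control, with overlap and no edgeR call (log2 -1.44, edgeR adjusted p = 0.0555). ADIPOQ, an adipokine gene that defines fat cells, was at 0.459 CPM or less in every control and at most 1.30 CPM in a shunt library.

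ALDH1A1, a retinaldehyde dehydrogenase and the 1 gene in the table from the list for epicardium, nerve and lymphatic vessels, was also highest in control libraries. It stood at 31.7 ± 20.1 CPM in fetal, 433 ± 149 CPM in control and 81.7 ± 61.4 CPM in shunt libraries. It rose by 3.77 on the log2 scale from fetal to control (edgeR adjusted p = 0.00390) and was lower in shunt than in control by -2.41 (adjusted p = 0.0427). The second call was kept without control 3, shunt 3 or shunt 4 and lost without each of the other libraries, with adjusted p up to 0.139, and without shunt 1 and shunt 2 together (adjusted p = 0.299). Endothelial markers (3 of 13 listed had a row) summed to 124 to 139 CPM in fetal, 68.4 to 94.6 CPM in control and 59.9 to 152 CPM in shunt libraries. Those of smooth muscle and pericytes (2 of 12) summed to 18.1 to 34.7, 3.77 to 12.8 and 1.497 to 16.4 CPM in the same order. Myeloid markers (8 of 13) summed to 9.84 to 20.1, 19.2 to 32.1 and 16.3 to 31.8 CPM. Those of lymphocytes and mast cells (6 of 15) summed to 2.33 to 4.43, 1.54 to 4.13 and 1.59 to 2.40 CPM. The part of these cell types in the HSD11B1 difference was not tested. In the RefSeq sheep annotation HSD11B1 lies within the span of LAMB3, a laminin gene that was not analysed here. As with THRA, the counting's use of strand was not given, and some reads could have been shared.

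NR3C1 (ENSOARG00000002045), the glucocorticoid receptor gene, was lower in the shunt than in the fetal ventricle, with -0.75 on the log2 scale (standard error 0.165, edgeR adjusted p = 0.00873), or 1.69-fold. Fetal libraries 1 to 4 were at 59.7, 48.4, 45.8 and 59.99 CPM. Control libraries were at 36.2, 52.9, 37.2 and 43.6 CPM, and shunt libraries at 32.4, 31.5, 32.1 and 30.9 CPM. All 4 shunt values lay below all fetal and all control values, and control and fetal values overlapped only through control 2. The means were 53.5 ± 7.44 CPM in fetal, 42.5 ± 7.72 CPM in control and 31.7 ± 0.676 CPM in shunt libraries (SD, n = 4 each).

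The NR3C1 call between shunt and fetal libraries held in each of the 22 alternatives tried, with edgeR or DESeq2 adjusted p from 0.000596 to 0.0388. Without shunt 1 and shunt 2 the log2 change was -0.78 (SE 0.186, edgeR adjusted p = 0.0193). The steps on either side were smaller and were not called. Control against fetal gave -0.33 (95% interval -0.68 to 0.02, edgeR adjusted p = 0.293), and shunt against control -0.42 (95% interval -0.77 to -0.07, adjusted p = 0.117). That last value was -0.45 without shunt 1 and shunt 2 (edgeR adjusted p = 0.242).

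The shunt libraries agreed on NR3C1 more closely than on almost any other gene. Its coefficient of variation there was 2.13%, and only 0.0459% of the genes tested had a smaller one. Counting error alone is wider than this: the 358 NR3C1 counts of shunt 2 have an exact Poisson interval of 322 to 397. With CPM over counts outside the mitochondrial genes the shunt values were 66.3, 50.1, 54.5 and 57.0, with a coefficient of variation of 12.0%. The closeness thus depends on the TMM factors, while the lack of overlap does not, since control libraries spanned 70.9 to 108 and fetal libraries 88.7 to 132 on that scale.

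**Figure D3:**
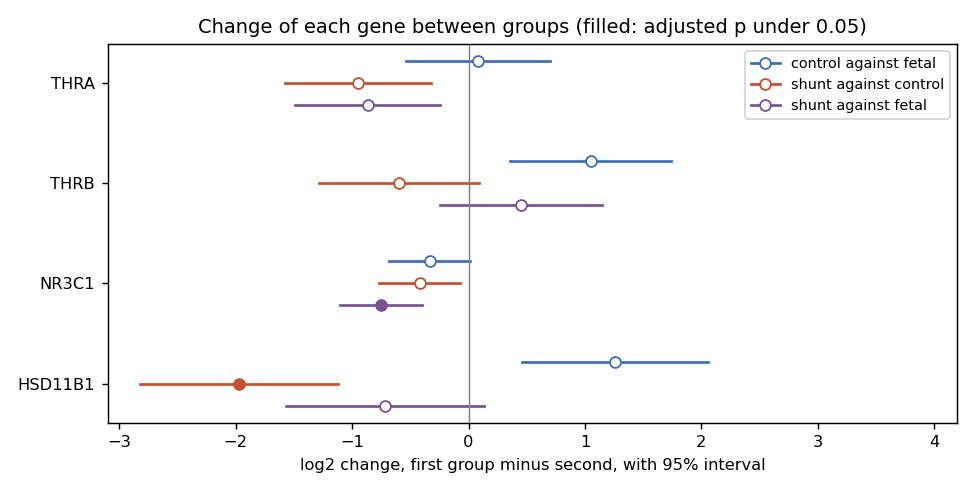
Log2 change of each gene in the 3 comparisons from 1 edgeR fit to 12 libraries, with 95% intervals as lines and filled points where the adjusted p was under 0.05. The filled points are HSD11B1 in shunt against control (-1.97) and NR3C1 in shunt against fetal (-0.75), and the THRA point for control against fetal sits near 0 (0.08).

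The order of the groups differed between the genes. THRA ran control, fetal, shunt, and the first pair did not differ beyond its spread. THRB and HSD11B1 were both highest in control libraries. Below that THRB had shunt above fetal and HSD11B1 fetal above shunt, and neither of those lower pairs differed beyond its spread. NR3C1 ran fetal, control, shunt, with overlap between fetal and control.

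Levels were also set beside the mitochondrial share of each library. THRA was lowest in the libraries with the highest share, shunt 1 and shunt 2, and in shunt 4, with a share of 45.6% that lies within the control range, it was at 97.7 CPM. NR3C1 was at 30.9 CPM in shunt 4 and at 32.4 CPM in shunt 1, with a share of 72.6%. HSD11B1 was at 0.674 CPM in shunt 4, below all control libraries, which had shares of 43.5% to 49.99%. It was lowest in shunt 2, at 0.352 CPM and a share of 71.4%. The part of the share in the values of the 4 genes in shunt 1 and shunt 2 was not tested.

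**Figure D4:**
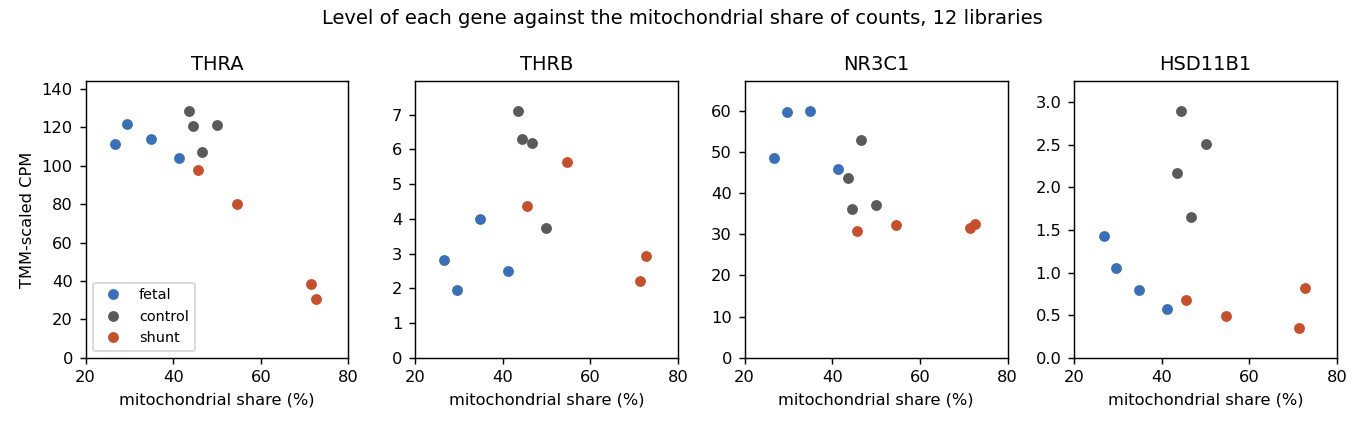
TMM-scaled CPM (linear axes from 0) of each gene against the percentage of the library's counts on 13 mitochondrial protein genes, 1 point per library, colours for the groups. THRA is lowest at the highest shares. NR3C1 is as low in shunt 4, at a share of 45.6%, as in shunt 1, at 72.6%. HSD11B1 is at 0.674 CPM in shunt 4, 0.819 CPM in shunt 1 and 0.352 CPM in shunt 2, at a share of 71.4%.

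Few other genes of the hormone pathways carry a symbol in the table, so the lists below speak for the members tested. Of the 11 genes listed for thyroid hormone supply, such as deiodinases and transporters, none was tested. Of 16 genes listed for glucocorticoid supply, CYP17A1 and STAR were tested, and neither was called by edgeR or DESeq2 or had an unadjusted p under 0.05. HSPA1A, an inducible heat shock protein and the 1 tested gene among 30 receptor partners and chaperones, was not called by either tool, at 0.37, 0.43 and 0.81 on the log2 scale in the 3 comparisons (edgeR adjusted p = 0.898, 0.821 and 0.630).

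Of 42 other nuclear receptors 3 were tested. NR5A2, a receptor of the steroidogenic factor family, fell from 1.58 ± 0.550 CPM in fetal to 0.431 ± 0.158 CPM in control libraries (log2 -1.85, SE 0.457, edgeR adjusted p = 0.0308). It stood at 0.543 ± 0.227 CPM in shunt libraries, lower than in fetal ones (log2 -1.55, SE 0.465, edgeR adjusted p = 0.0368). These calls were lost without fetal 1, 2 or 4, the first also without control 1, 2 or 4 and the second also without control 1 or shunt 1, 2 or 3, with adjusted p up to 0.118 and 0.115, and the second was also lost without shunt 1 and shunt 2 together (log2 -1.64, edgeR adjusted p = 0.0987). PPARG, the receptor that drives fat cell formation, was higher in shunt than in fetal libraries, at 6.84 ± 2.69 against 2.28 ± 0.982 CPM (log2 1.59, SE 0.365, edgeR adjusted p = 0.0114), and was not called without shunt 1 and shunt 2 (adjusted p = 0.0932). NR1D1, described with THRA, was the third.

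Of 41 genes listed as known to respond to thyroid hormone 10 were tested. From fetal to control libraries edgeR called 2 higher and none lower, where it called 5.17% of all genes, with a median log2 change of 0.50 over the 10, against 0.00 over all genes tested. DESeq2, which called 8.54% of all genes it gave an adjusted p, called these and, as lower, NPPB, the gene of the natriuretic peptide BNP. NPPB stood at 108 to 402 CPM in fetal and 0 to 9.38 CPM in control libraries, with no overlap (edgeR log2 -5.90, adjusted p = 0.104; DESeq2 adjusted p = 0.00454). MB, the oxygen-binding myoglobin, rose from 4610 ± 937 to 9517 ± 539 CPM (log2 1.05, edgeR adjusted p = 0.0218). UCP2, a mitochondrial carrier, was at 1.41 to 2.14 CPM in fetal and 1.88 to 16.1 CPM in control libraries, which overlap (log2 2.42, edgeR adjusted p = 0.0128). Between shunt and control edgeR called none of the 10, against 4.00% of all genes. DESeq2 called NPPB higher, at 6.18 to 2520.0 CPM in shunt libraries (DESeq2 adjusted p = 0.000338), where it called 15.1% of all genes. An unadjusted p under 0.05 was found for 3 of the 10, near the 28.0% of all genes, and the median was 0.19 against 0.01 over all genes. EdgeR called 2 of 10 higher in shunt than in fetal libraries and none lower, against 9.16% and 6.51% of all genes, namely UCP2 and SLC25A4, an ADP/ATP carrier, at 2.34 and 1.07 on the log2 scale (edgeR adjusted p = 0.00802 and 0.00806), with a median of 0.72 against -0.01. DESeq2 called MB and CPT1B, the muscle form of the enzyme that admits fatty acids to mitochondria, there as well, 4 of 10 against 19.7% of all genes it gave an adjusted p.

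Of 52 genes listed as known to respond to glucocorticoid 5 were tested, among them ATP1B1, which is on the thyroid list too. From fetal to control libraries edgeR called 1 of the 5 higher, NFKBIA, and none lower, against 2.66% and 2.50% of all genes. The median was 0.66 against 0.00 over all genes. NFKBIA, the inhibitor that holds NF-kappa B in the cytoplasm, went from 80.3 ± 28.8 to 211 ± 47.6 CPM (log2 1.40, SE 0.374, edgeR adjusted p = 0.0447). Its level in shunt libraries was 400 ± 227 CPM, from 162 to 699.8, higher than in fetal ones (log2 2.32, SE 0.385, edgeR adjusted p = 0.00278) and not called against control (log2 0.92, adjusted p = 0.125). FOXO3, a transcription factor of fasting and stress, and CDKN1A, a cell cycle inhibitor, stood at 0.66 and 1.36 for control against fetal, called by DESeq2 (adjusted p = 0.0283 and 0.0132) and not by edgeR (adjusted p = 0.0716 and 0.0699). DESeq2 called 8.54% of all genes it gave an adjusted p in that comparison. In shunt against fetal edgeR called NFKBIA alone, as higher, where it called 9.16% of all genes higher and 6.51% lower. DESeq2 called CDKN1A there too (adjusted p = 0.0231), against 19.7% of all genes it gave an adjusted p. Between shunt and control neither edgeR nor DESeq2 called any of the 5, where they called 4.00% and 15.1% of all genes. Of the 5, 1 had an unadjusted p under 0.05, against 28.0% of all genes, and the median was -0.20 against 0.01.

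The control against fetal call of NFKBIA was lost without any 1 of the 8 fetal and control libraries, with edgeR adjusted p up to 0.119. That of MB was lost without fetal 1, 2 or 4 or control 1, 3 or 4, with adjusted p up to 0.0837. The UCP2 calls, and those of NFKBIA and SLC25A4 for shunt against fetal, held without each of the 12 libraries. With library totals as the scaling, calls were lost for MB, UCP2 and NFKBIA in control against fetal and for SLC25A4 and PPARG in shunt against fetal. Without shunt 1 and shunt 2 the thyroid list had 2 called in control against fetal, none in shunt against control and 3 in shunt against fetal. The glucocorticoid list then had 3, none and 3 of 6 tested, all higher. In that fit 12.2%, 0.466% and 9.58% of all genes were called. NFKBIA was then at 1.54 on the log2 scale for shunt against fetal (edgeR adjusted p = 0.0127).

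Likeness to each gene was measured over the 12 libraries, among 463 genes with a symbol, as the mean absolute difference in log2 CPM after each gene was centred on its own mean. The nearest to THRA were RPA1, a subunit of the single-strand DNA binding complex, BCKDHA, a subunit of the enzyme that degrades branched-chain amino acids, and SMAD4, the shared partner of TGF-beta signalling. They differed from THRA by 0.110, 0.128 and 0.219, against a median of 0.615 over the 463. RPA1 stood at 31.7 ± 6.53 CPM in fetal, 31.9 ± 4.68 CPM in control and 16.8 ± 8.60 CPM in shunt libraries, and like THRA it was lowest in shunt 1 and shunt 2. The nearest genes were picked for closeness over these same libraries, so a shared pattern is no separate finding.

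The nearest to THRB were CIPC, a repressor of the circadian factor CLOCK, the protease gene FURIN and FHL1, a LIM domain protein of muscle, at 0.277, 0.287 and 0.325 (median 0.634). CIPC averaged 2.58 ± 0.554 CPM in fetal, 4.49 ± 1.22 CPM in control and 2.65 ± 0.827 CPM in shunt libraries. Of the genes compared, the nearest to NR3C1 were the cryptochrome gene CRY1, UBQLN1, which encodes a ubiquitin-binding protein, and PSIP1, a chromatin-bound coactivator, at 0.191, 0.192 and 0.199 (median 0.499). CRY1 averaged 10.2 ± 1.86 CPM in fetal, 9.73 ± 1.77 CPM in control and 6.66 ± 0.232 CPM in shunt libraries.

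The nearest to HSD11B1 were gelsolin, GSN, the growth factor gene FGF7 and the growth hormone receptor gene GHR, at 0.426, 0.464 and 0.465 (median 0.859). GSN stood at 190.3 ± 35.1 CPM in fetal, 518 ± 104 CPM in control and 212 ± 94.2 CPM in shunt libraries. GHR stood at 9.80 ± 1.94, 14.1 ± 2.84 and 7.93 ± 0.643 CPM in the same order. The differences for HSD11B1 were larger than for the other 3 genes, and its own counts were the lowest.

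**Figure D5:**
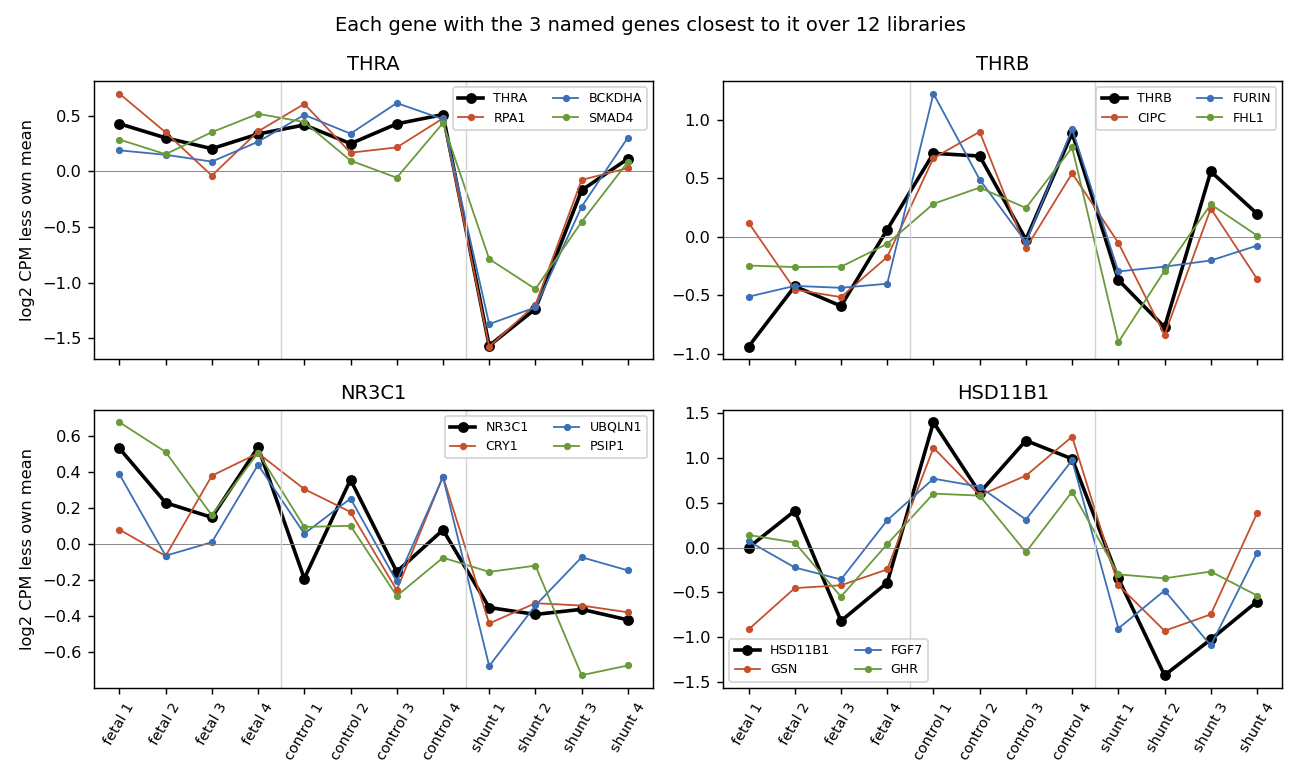
Log2 CPM of THRA, THRB, NR3C1 and HSD11B1 (black), each less its own mean over 12 libraries, with the 3 genes closest to it among those compared (colours), library by library, grey lines between groups. The closest follower of THRA is RPA1, at a mean absolute difference of 0.110, and the closest of HSD11B1 is GSN, at 0.426.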

How the data were processed

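A table of raw counts was deposited by the authors, headed total counts per the file headers. Its 27054 rows are genes and its 12 columns libraries, which the library names in the labels tie to samples. Per the labels' protocols, libraries were made with a stranded mRNA kit and sequenced in pairs of 75 bases. No coordinates are printed, with the aligner, counting program, genome build and strand setting not given in the sources used here.

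The filter was filterByExpr (edgeR 4.0.16, R 4.3.3), which left 13065 genes, with TMM factors from 0.455 to 1.61. Log2 CPM used a prior count of 2. The quasi-likelihood model had 3 groups and 12 libraries (glmQLFit with robust estimation, glmQLFTest). Standard errors were taken as the absolute log2 change over the root of F, and 95% intervals from them with the degrees of freedom of the model. The count ratio was tested with exact permutation tests in scipy 1.17.1. DESeq2 1.42.0 was an alternative. The tests were checked on simulated counts.

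The members, lists and alternatives were chosen with earlier results of these data known. Named genes were the members, NR1D1, at most 4 tested genes of a list by smallest p, and the 3 genes closest to each member. Some genes are not reported here and were left out of the lists and of the genes compared for likeness, while they stayed in the fit. DCN, FGF7, ADIPOQ, LPL, LIPE, FABP4, SCD and ALDH1A1 come from the marker lists and were picked after their values were seen. PPARG is on a marker list too. The markers of red blood cells had no row that was used. The smallest chi-square per gene between replicates was 20.3, so none was a repeat sequencing of the same library. The value cannot tell separate animals from separate libraries of the same animal.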

Additional observations from a re-analysis of the deposited data

Results flagged for a closer look

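The THRA to THRB count ratio of control 3, at 32.4, stood far from the other control libraries, at 17.3 to 19.1, by Dixon's test for 4 values. It was the 1 value to stand out among 18 groups of 4 examined, where chance alone is expected to pick about 1 in 20. Without control 3 the log2 difference in the ratio between control and fetal libraries was -1.19.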

How the results depend on the processing

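Each gene was refitted under 22 alternatives per comparison. Scaling by library totals moved the median gene by -0.41 between control and fetal, -0.59 between shunt and control and -1.02 between shunt and fetal. There THRA turned to -0.33 for control against fetal and THRB to -0.48 for shunt against fetal. Calls gained there were NR3C1 in shunt against control (-1.04) and, in shunt against fetal, THRA (-1.73) and HSD11B1 (-1.76). DESeq2's Wald test added THRB (1.06) and HSD11B1 (1.27) in control against fetal, and THRA in shunt against control (-0.95) and shunt against fetal (-0.86). With only the groups compared in the fit, THRB (1.05) and HSD11B1 (1.26) were called in control against fetal and HSD11B1 (-1.98) was not in shunt against control. Without shunt 1 and shunt 2 these values were 1.05, 1.26 and -2.02, with the same outcome.

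The count of genes called was 675 for control against fetal, and 1210 with DESeq2, 1913 with only the groups compared and 1672 without shunt 1 and shunt 2. For shunt against control it was 522, and in the same order 1925, 4 and 64, and for shunt against fetal 2048, with 1073 with only the groups compared, 1314 without shunt 1 and shunt 2 and 7929 with library totals. Leaving out 1 library at a time gave 259 to 886, 6 to 2169 and 957 to 2855 genes.

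Leaving out 1 library at a time gave, for THRA, 0.06 to 0.15, -1.26 to -0.73 and -1.18 to -0.64 for control less fetal, shunt less control and shunt less fetal. For THRB it gave 0.92 to 1.29, -0.86 to -0.43 and 0.19 to 0.68, and for NR3C1 -0.44 to -0.24, -0.50 to -0.31 and -0.81 to -0.68. For HSD11B1 it gave 1.10 to 1.51, -2.15 to -1.84 and -0.90 to -0.47. The count ratio moved from -1.19 to -0.78, from -0.62 to -0.23 and from -1.59 to -1.22 in the same order, and 3 against 4 libraries cannot pass its exact test.

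Replicate numbers are shared between groups, and the labels do not say what they mark. Deviations from the group mean correlated at -0.19 to 0.15 between same-numbered libraries. The best match in the other group had the same number for 4 of 8 libraries in control against fetal. It did for 1 of 8 in shunt against control and 0 of 8 in shunt against fetal. Each library had only 4 candidates, so some matches of number are expected by chance, and these counts were not tested. With a replicate block, HSD11B1 was at -1.98 and not called in shunt against control (adjusted p = 0.0606), THRA was at -0.98 and called in shunt against fetal (adjusted p = 0.0495), and 61 genes were called in shunt against control. The causes of these changes were not tested. Depth limits HSD11B1 most, with 4 to 18 counts in shunt libraries.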
